A study of Mus musculus with 32 samples.

Results

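The 10 genes described here encode the fatty acid desaturases and elongases Scd1, Scd2, Scd3, Fads1, Fads2, Elovl1, Elovl2, Elovl3, Elovl5 and Elovl6. They were taken by gene symbol from 2 deposited tables of raw read counts, 1 for each sex, and all 10 were found in both tables among 41585 entries. Liver RNA had been sequenced from WT mice and from Cyp2b-null mice, in which Cyp2b9, Cyp2b10 and Cyp2b13 were removed with CRISPR/Cas9. Both genotypes are labelled C57BL/6, and the study's methods give the same background, C57BL/6J, for both. Mice of both sexes were 10 weeks old when they began 8 weeks on either normal chow (ND, with 6.2% fat) or CDAHFD, a high fat diet (62% fat) of defined amino acids that lacks choline and is low in methionine. Each combination of genotype, diet and sex had 4 libraries, 32 in all, and the labels do not say that each came from a separate mouse, so p-values measure the spread between these libraries. WT mice were purchased whereas the Cyp2b-null line was made by the study's laboratory, so origin and genotype cannot be told apart. The diets differ in choline, methionine, fat and other ingredients, and a diet effect below belongs to the whole diet.

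Stearoyl-CoA desaturases (Scd) place the first double bond into saturated acyl chains and thereby make oleic and palmitoleic acids for triglycerides and phospholipids. Fads2 and Fads1 add double bonds to polyunsaturated chains, Fads2 at the entry step from linoleic and alpha-linolenic acids and Fads1 at the later step that yields arachidonic and eicosapentaenoic acids. Elongases of the Elovl family lengthen acyl chains: Elovl6 turns palmitate into stearate, Elovl5 and Elovl2 extend polyunsaturated chains, and Elovl1 and Elovl3 extend saturated and monounsaturated chains to very long ones. In liver, Scd1 and Elovl6 belong to the lipogenic program governed by Srebf1 and Mlxipl, and polyunsaturated fatty acids in food are known to lower that program.

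Library totals ranged from 2906411 to 10166959 counts. In the Cyp2b-null groups, Cyp2b9 did not exceed 2.28 CPM (read counts relative to the scaled library total) in any library, compared with 534 to 615 CPM in ND-fed WT females, while Cyp2b9 in ND-fed WT males was itself at 0 to 3.22 CPM and checks nothing there. Of the 3 deleted genes, 2 were tested in males. Among these, 1 was called lower in Cyp2b-null than in WT males on ND, and 1 on CDAHFD. The library of CDAHFD-fed Cyp2b-null female replicate 3, stood apart, with a median correlation of 0.952 to the other libraries of its group. The tissue label held: the summed hepatocyte markers (Alb, Apoa1, Ttr, Cps1 and Serpina1a) reached at least 52144 CPM in every library. Diet moved the cell type markers too. Hepatocyte markers had medians of 145620 CPM in ND-fed and 90657 CPM in CDAHFD-fed WT females, and of 121180 and 74446 CPM in WT males, with no overlap in either sex. All 5 fell in WT males and 4 of 5 in WT females, with a median log2 change of -0.77 in WT females, -0.58 in Cyp2b-null females, -0.71 in WT males and -0.67 in Cyp2b-null males. Summed macrophage markers (5 genes) had medians of 344 and 786 CPM in WT females and of 143 and 794 CPM in WT males on ND and CDAHFD, and 4 of 5 rose in all 4 diet comparisons, Clec4f being the exception. Summed markers of stellate cells and fibroblasts (5 genes) had medians of 207 and 586 CPM in WT females and of 118 and 447 CPM in WT males, and those of lymphocytes (4 genes) of 15.6 and 38.2 CPM and of 8.8 and 42.1 CPM. Of the stellate cell and fibroblast genes, 3 of 5 were called higher in WT and 4 of 5 in Cyp2b-null mice of each sex. Of the lymphocyte genes, 1 of 3 tested was called higher in WT females, 2 of 3 in Cyp2b-null females, and only 1 was tested in males. Summed endothelial markers (3 genes) lay at 88.1 to 176 CPM and summed cholangiocyte markers (4 genes) at 5.41 to 27.2 CPM. Markers of skin and sebaceous gland (3 genes) summed to at most 8.49 CPM and Mc5r was at 0 in all groups. Adipocyte markers summed to at most 3.25 CPM except in ND-fed Cyp2b-null males, where they reached 3.17 to 33.1 CPM, and Lep was at 0 in all groups. In these bulk samples, fewer cells of a type and less RNA per cell cannot be told apart, and the part of cell composition in the diet effects was not tested.

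Of the 10 members, 6 lie on mouse chromosome 19 (GRCm38.p6, RefSeq coordinates). Scd3 (19:44203288-44244016), Scd2 (19:44293676-44306864) and Scd1 (19:44394450-44407709) lie in 1 cluster, with Scd4 (19:44333326-44346743), which is no member, between Scd2 and Scd1. Fads2 (19:10062765-10101503) and Fads1 (19:10182877-10196874) lie close together, and Elovl3 is at 19:46131897-46135694. The others are Elovl1 (4:118426874-118432953), Elovl2 (13:41182382-41220403), Elovl5 (9:77917365-77984519) and Elovl6 (3:129532386-129638495). Because the Scd genes are close copies, reads can be shared: of all 50-base words in the Scd3 transcripts, 6.57% also occurred in the transcripts of another gene, most often Scd1, compared with 4.56% for Scd1 and 3.97% for Scd2. The share was 3.98% for Elovl6, mostly with Gm11295, and at most 0.152% for the remaining members. Exons of Elovl1 overlap those of Cdc20 and exons of Elovl3 those of Pitx3, each on the opposite strand, and the strand setting of the authors' counting is not given in the sources used here.

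RefSeq promoter windows, which run from 250 bases before to 50 bases after a listed start of a gene, were found for 6 of 10 members. The 250 bases before the start are printed for Elovl6 and Elovl5, which fell with diet in all 4 comparisons below, for Scd3, which was at the counting floor on CDAHFD, and for the first of 2 Elovl1 windows, since Elovl1 rose in all 4. That Elovl1 window begins at 118427843, inside the span given above, which begins at 118426874, so it belongs to a start within that span. Capitals mark a CCAAT box, an E-box (CACGTG) or a GC box (GGGCGG) on either strand, and the sterol regulatory element TCACNCCAC was also searched.
Elovl6, chr3:129532136-129532385 (plus strand): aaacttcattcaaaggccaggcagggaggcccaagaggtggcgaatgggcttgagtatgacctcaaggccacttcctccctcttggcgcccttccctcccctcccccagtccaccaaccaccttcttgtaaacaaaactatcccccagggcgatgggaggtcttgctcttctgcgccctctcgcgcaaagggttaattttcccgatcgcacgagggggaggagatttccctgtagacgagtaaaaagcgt
Elovl5, chr9:77917115-77917364 (plus strand): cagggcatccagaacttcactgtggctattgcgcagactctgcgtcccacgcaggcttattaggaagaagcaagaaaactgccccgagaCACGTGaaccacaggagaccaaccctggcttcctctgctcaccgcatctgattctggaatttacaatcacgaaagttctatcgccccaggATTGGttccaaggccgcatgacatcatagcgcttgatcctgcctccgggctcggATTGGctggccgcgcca
Scd3, chr19:44203038-44203287 (plus strand): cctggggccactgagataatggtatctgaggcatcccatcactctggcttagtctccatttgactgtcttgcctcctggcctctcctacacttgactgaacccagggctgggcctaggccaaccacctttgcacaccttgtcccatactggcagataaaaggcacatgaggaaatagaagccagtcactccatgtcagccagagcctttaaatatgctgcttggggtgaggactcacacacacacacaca
Elovl1, chr4:118427843-118428092 (plus strand): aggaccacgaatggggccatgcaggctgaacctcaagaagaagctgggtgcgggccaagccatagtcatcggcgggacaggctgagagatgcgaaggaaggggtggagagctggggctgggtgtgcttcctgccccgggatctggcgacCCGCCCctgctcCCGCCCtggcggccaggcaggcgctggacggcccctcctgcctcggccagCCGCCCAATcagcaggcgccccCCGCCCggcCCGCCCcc
The Elovl5 window held 2 CCAAT boxes and 1 E-box, the Elovl1 window 1 CCAAT box that overlaps 1 of its 5 GC boxes, and the Elovl6 and Scd3 windows none of these letters. Among all 32851 windows, 37.4% held CCAAT, 7.15% CACGTG, 35.7% GGGCGG and 1.24% TCACNCCAC. No window of a member held TCACNCCAC. The Fads2 window held 1 GC box and the first Elovl2 window 5.

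In ND-fed livers Scd1 was by far the most abundant member. Its level per exon length was 2746 ± 1287 CPM per kb in WT females, 2168 ± 352 in Cyp2b-null females, 3290 ± 911 in WT males and 3358 ± 958 in Cyp2b-null males (SD, n = 4 each, on a scaling common to both sexes). These levels made up 72.8%, 69.7%, 73.4% and 73.7% of the summed CPM per kb of the 10 genes, and Scd1 took 0.626% to 1.93% of all counted reads in these libraries. Elovl5 came second in all 4 ND groups, at 262 to 315 CPM per kb. In WT females Fads1 (213), Elovl2 (190.2) and Fads2 (133) followed and overlapped their neighbours in this order, then came Elovl6 (40.4) and Elovl1 (16.2), which overlapped each other. Elovl3, Scd2 and Scd3 were lowest there, at 2.93, 2.29 and 0.876 CPM per kb. In the other 3 ND-fed groups Elovl2 lay above Fads1, with overlap. ND-fed males differed from females in their Elovl3, which at 258 CPM per kb in WT and 218 in Cyp2b-null males lay among Elovl5, Elovl2 and Fads1 and overlapped its neighbours.

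On CDAHFD the order was different, and Scd1 ranked below Fads2, Elovl5, Fads1 and Elovl2 in all 4 groups. Its share of the summed CPM per kb was 5.40% in WT females, 5.32% in Cyp2b-null females, 5.46% in WT males and 3.68% in Cyp2b-null males. Fads2 was the highest member in Cyp2b-null females (26.2%), WT males (28.4%) and Cyp2b-null males (32.5%), while Elovl5 (25.4%) lay above Fads2 (23.1%) in WT females. In each of these 4 groups the first-ranked gene overlapped the second. Scd1 (34.5 CPM per kb in WT females) overlapped Elovl1 (25.7) on this diet.

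**Figure D1:**
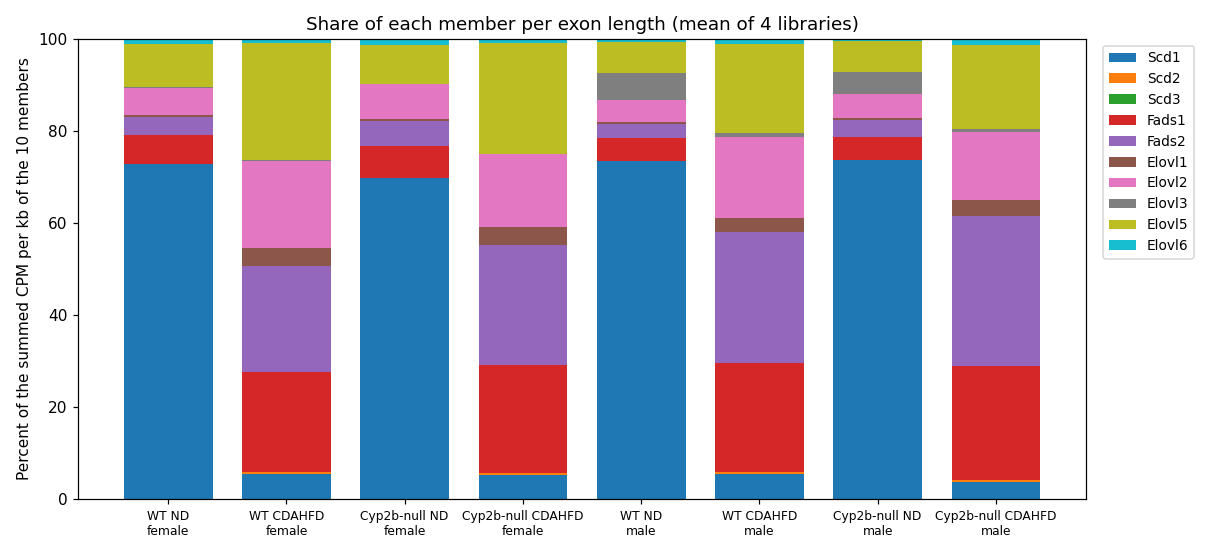
Stacked bars give the mean share (percent, n = 4 libraries) of each gene in the summed CPM per kb of the 10 members for each of 8 groups. Scd1 fills 69.7% to 73.7% of the bars of ND-fed groups and 3.68% to 5.46% of those of CDAHFD-fed groups.

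Diet changed most members, and mostly downward. In WT females 7 of 10 fell and 1 rose; in Cyp2b-null females 6 fell and 1 rose; in WT males and in Cyp2b-null males 6 fell and 3 rose (edgeR quasi-likelihood test, adjusted p under 0.05 over all genes tested). All 10 passed the filter on low counts in both sexes. Scd3 is counted among those that fell in each comparison, but it passed the filter only through ND-fed libraries and so had to be lower on CDAHFD, and nothing is read from its call. With only the 2 groups of a comparison fitted, 5 fell in WT females and 4 in Cyp2b-null females. Scd3 in females of both genotypes and Elovl3 in WT females then went untested. Fads1 in Cyp2b-null females lost its call (edgeR adjusted p 0.0535). The background was 24.1% of 13226 genes called in WT females (10.2% lower and 13.9% higher on CDAHFD) and 30.8% in Cyp2b-null females (13.9% lower, 16.9% higher). In males 33% of 13460 genes were called in WT mice (15% lower, 18% higher) and 37.4% in Cyp2b-null mice (17.1% lower, 20.3% higher). The median log2 change of the members was -0.74 in WT females, -0.55 in Cyp2b-null females, -0.78 in WT males and -1.04 in Cyp2b-null males. Over all genes tested it was -0.0021, 0.027, -0.023 and -0.0083 in this order. Hepatocyte markers had medians of -0.77, -0.58, -0.71 and -0.67 in the same order, and their part in the members' falls was not tested. The members' medians were the same with Scd3 set at the lower bound given below. That bound still lies below each median, so no median could have moved. The medians include Scd3, whose direction on CDAHFD was fixed by the filter. With scaling to library totals alone, the median of all genes shifted to 0.32, 0.28, 0.37 and 0.36, the share of lower genes among those called in WT females moved from 42.4% to 11.2%, and in WT males from 45.4% to 10.2%. The corresponding shares in Cyp2b-null mice moved from 45.0% to 14.2% in females and from 45.7% to 13.7% in males. Under that scaling the calls of Fads1, Elovl2 and Elovl3 in WT females, of Fads1 and Elovl5 in Cyp2b-null females and of Elovl2 in WT males were lost, and Fads2 in WT females and Scd2 in Cyp2b-null females gained one.

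**Figure D2:**
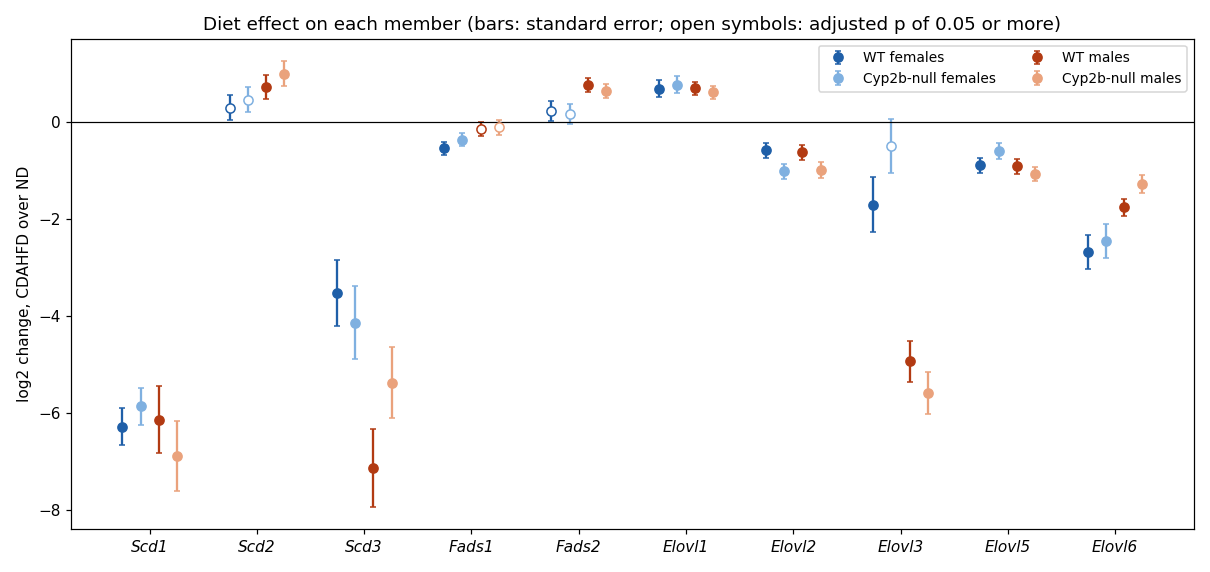
Points are log2 changes of CDAHFD over ND for each member in 4 comparisons, with standard errors as bars and open symbols where the adjusted p was 0.05 or more. Scd1 lies at -5.86 to -6.89 and Elovl1 at 0.60 to 0.77 in all comparisons, and Elovl3 lies at -4.94 and -5.59 in males and at -1.71 and -0.50 in females. The fitted points of Scd3 depend on the prior count, because its CDAHFD groups are at the counting floor.

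Scd1 had the deepest fall among the members that could be measured on both diets. In WT females its levels were 9877, 7409, 14653 and 21526 CPM on ND and 145, 219, 139 and 182 CPM on CDAHFD. In Cyp2b-null females they were 10915, 9353, 12916 and 9127 CPM on ND and 248, 238, 168 and 73.8 CPM on CDAHFD. No CDAHFD-fed female came within the range of the ND-fed females of either genotype. In WT males the levels were 10242, 20788, 15345 and 16082 CPM on ND and 396, 398, 60.2 and 33.4 CPM on CDAHFD. In Cyp2b-null males they were 10707, 19345, 20104 and 13623 CPM on ND and 61.7, 229.9, 65.5 and 181 CPM on CDAHFD. The diets did not overlap in males either, and the CDAHFD-fed males split into pairs of higher and lower libraries. The log2 change was -6.29 ± 0.38 (SE) in WT females, a 78.0-fold lower level, with an adjusted p of 3.09e-10 by edgeR's quasi-likelihood test. It was -5.86 ± 0.38 in Cyp2b-null females (adjusted p 5.76e-10), -6.14 ± 0.69 in WT males (adjusted p 7.06e-07) and -6.89 ± 0.71 in Cyp2b-null males (adjusted p 1.87e-07).

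The 2 close copies of Scd1 were far below it on ND, and Scd3 was at the counting floor on CDAHFD. Scd3 passed the filter only through ND-fed libraries, so its lower level on CDAHFD is not set against Scd2. Scd3, which in mice is known mainly from skin, was at 1.56 to 4.85 CPM in ND-fed WT females and 1.60 to 3.95 CPM in Cyp2b-null females. ND-fed males had 2.35 to 15.9 CPM of Scd3 in WT and 3.71 to 5.38 CPM in Cyp2b-null mice. On CDAHFD no library held more than 3 Scd3 reads. Folds are therefore lower bounds that set the ND group mean against a floor of 3 counts per library. By these means Scd3 was at least 5.02-fold lower in WT females and at least 5.25-fold lower in Cyp2b-null females. Among males it was at least 16.4-fold lower in WT and at least 11.2-fold lower in Cyp2b-null mice. Single ND-fed libraries lay closer to the floor, down to 4 reads in WT female replicate 2. The Scd3 level on ND was 0.0171% to 0.0766% of the Scd1 level in the same library, and whether reads of Scd1 counted for Scd3 contribute to it was not tested.

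Scd2, the isoform known as dominant in brain and in growing tissues, was higher on CDAHFD in males. WT males had 5.43, 18.4, 10.8 and 12.9 CPM of Scd2 on ND and 19.2, 22.1, 21.6 and 15.03 CPM on CDAHFD, and 1 ND-fed library lay inside the CDAHFD range. Cyp2b-null males had 9.40, 8.95, 12.4 and 11.3 CPM on ND and 16.1, 17.7, 27.9 and 21.2 CPM on CDAHFD, with no overlap. Scd2 rose by a log2 change of 0.72 ± 0.25 in WT males (adjusted p 0.0344) and of 0.99 ± 0.25 in Cyp2b-null males (adjusted p 0.00389, both edgeR). The call in WT males was lost when any of 4 libraries was left out, namely WT males ND replicate 1 (log2 change 0.48) or replicate 3, or CDAHFD replicate 2 or 3, and the adjusted p ranged from 0.00383 to 0.106 over the 16 fits without 1 library. Its value was 0.29 ± 0.26 in WT females (adjusted p 0.465) and 0.46 ± 0.26 in Cyp2b-null females (adjusted p 0.202), where the diets overlapped. Scd2 in Cyp2b-null females passed the test without CDAHFD-fed replicate 3, the library that stood apart (log2 change 0.65, adjusted p 0.0456). Macrophage and stellate cell markers rose with Scd2 in males, as given above, and their part in its rise was not tested.

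Per length, Scd1 accounted for 99.8% to 99.9% of the summed Scd1, Scd2 and Scd3 in each ND-fed library. On CDAHFD this share was 88.8% to 94.4% in WT females, 84.7% to 95.9% in Cyp2b-null females, 71.5% to 95.8% in WT males and 72.5% to 93.6% in Cyp2b-null males, and Scd2 made up nearly all of the rest, up to 28.5% in a WT male. Scd1 therefore remained the main measured Scd transcript on both diets.

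**Figure D3:**
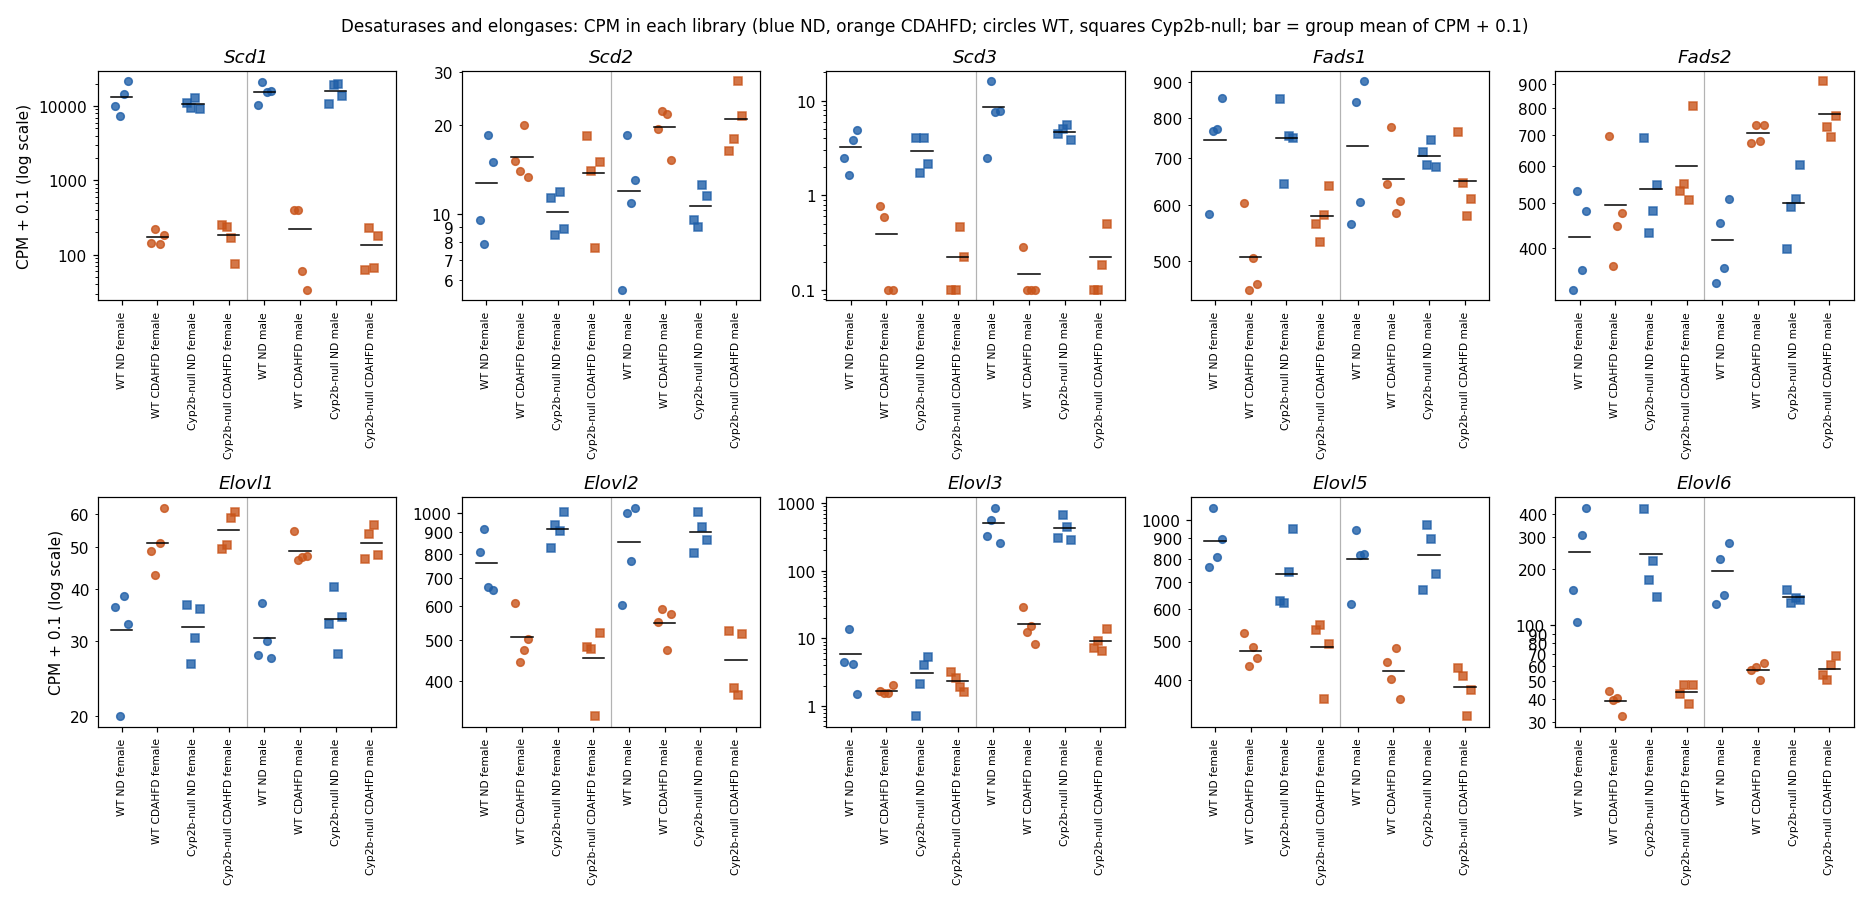
Each panel shows 1 member, with CPM + 0.1 on a log axis for every library of 8 groups (blue ND, orange CDAHFD, circles WT, squares Cyp2b-null) and a bar at the group mean. Scd1, Elovl2, Elovl5 and Elovl6 show no overlap of diets within any sex and genotype, Elovl1 lies higher on CDAHFD, and Elovl3 is highest in ND-fed males, at 253 to 859 CPM.

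Elovl6, the elongase that makes stearate, the substrate of Scd1, fell in all 4 diet comparisons. In WT females its levels were 154, 104, 308 and 432 CPM on ND and 44.2, 39.3, 40.4 and 32.1 CPM on CDAHFD. In Cyp2b-null females they were 425, 176, 222 and 143 CPM on ND and 42.3, 47.2, 37.2 and 47.5 CPM on CDAHFD. The diets were separate in both genotypes, and the ND-fed females spread over a wider range than the CDAHFD-fed ones. WT males had 129, 227, 146 and 278 CPM on ND and 56.9, 59.6, 50.4 and 62.0 CPM on CDAHFD. Cyp2b-null males had 155, 132, 141 and 137 CPM on ND and 53.8, 50.3, 60.7 and 67.7 CPM on CDAHFD. Males were separate by diet as well. On the scaling common to both sexes, the CDAHFD mean of males over that of females was 1.53 in WT and 1.39 in Cyp2b-null mice. The sexes did not overlap there, but sex and count table cannot be told apart, and these ratios are given without a test. Log2 changes were -2.68 ± 0.36, -2.46 ± 0.35, -1.77 ± 0.18 and -1.28 ± 0.18 in WT females, Cyp2b-null females, WT males and Cyp2b-null males, with edgeR adjusted p from 2.63e-07 to 2.47e-05.

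The largest difference between the sexes was that of Elovl3. ND-fed WT males had 321, 565, 859 and 253 CPM of Elovl3 and ND-fed Cyp2b-null males had 307, 659, 442 and 283 CPM. On CDAHFD these levels were 29.5, 12.3, 15.3 and 8.21 CPM in WT males and 7.12, 9.02, 6.41 and 13.5 CPM in Cyp2b-null males, below every ND-fed male. Elovl3 fell by 4.94 ± 0.42 on the log2 scale in WT males (adjusted p 1.88e-08) and by 5.59 ± 0.44 in Cyp2b-null males (adjusted p 4.79e-09, both edgeR). Females had little of it on either diet. ND-fed WT females had 4.40, 13.6, 4.07 and 1.39 CPM and CDAHFD-fed ones 1.56, 1.46, 1.43 and 1.93 CPM, which overlapped. Cyp2b-null females had 0.607, 2.003, 3.90 and 5.23 CPM on ND and 3.11, 2.47, 1.80 and 1.49 CPM on CDAHFD, also overlapping. The change in WT females, -1.71 ± 0.57, passed the test (adjusted p 0.0319), but without ND-fed replicate 2 it was -0.97 with an adjusted p of 0.209, and the call was also lost without any 1 of the 4 CDAHFD-fed WT females. In Cyp2b-null females the value was -0.50 ± 0.56 (adjusted p 0.53).

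On the common scaling, the mean Elovl3 level of males over that of females was 87.8 in ND-fed WT mice, 148 in ND-fed Cyp2b-null mice, 10.7 in CDAHFD-fed WT mice and 4.25 in CDAHFD-fed Cyp2b-null mice, with no overlap of the sexes in any of the 4. Sex and count table cannot be told apart in these ratios, which are given without a test. ND-fed females held only 2 to 31 Elovl3 reads per library in Cyp2b-null and 8 to 35 in WT mice. A fall as deep as that of males could not have been measured in them. The low female level therefore limits what a difference of diet effects can mean for Elovl3. That difference was called in Cyp2b-null mice, at -5.02 ± 0.82 on the log2 scale (males minus females, edgeR adjusted p 0.000364), where 3.4% of 14020 genes were called. In WT mice the difference was -3.27 ± 0.87 with an adjusted p of 0.058, and 0.97% of genes were called. That adjusted p ranged from 0.0138 to 0.172 over the fits without 1 library and passed the threshold without WT females ND replicate 2 (0.0138), WT males ND replicate 1 (0.049) or 4 (0.0355), WT males CDAHFD replicate 1 (0.0141) or Cyp2b-null males ND replicate 2 (0.0462), and it was 0.00715 with DESeq2. No other member was called for a difference of diet effects between sexes. Elovl6 had differences of 0.94 ± 0.42 in WT (adjusted p 0.404) and 1.21 ± 0.42 in Cyp2b-null mice (adjusted p 0.0979, or 0.0376 with the 4 Cyp2b-null groups fitted alone).

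Elovl5 and Elovl2, the elongases of polyunsaturated chains, fell in all 4 diet comparisons without overlap of the diets. Elovl5 means were 885 ± 137 and 474 ± 39.3 CPM on ND and CDAHFD in WT females, 735 ± 153 and 482 ± 85.8 CPM in Cyp2b-null females, 800.2 ± 135 and 422 ± 52.1 CPM in WT males, and 817 ± 140 and 386 ± 45.5 CPM in Cyp2b-null males (SD, n = 4 libraries each). Its log2 changes were -0.90 ± 0.16, -0.61 ± 0.16, -0.92 ± 0.15 and -1.08 ± 0.15, with edgeR adjusted p of 0.000278, 0.00679, 6.53e-05 and 8.16e-06. Elovl2 means were 762 ± 124 and 507 ± 73.5 CPM in WT females, 917 ± 73.5 and 452 ± 83.8 CPM in Cyp2b-null females, 850.0 ± 201 and 548 ± 52.2 CPM in WT males, and 898 ± 85.9 and 449 ± 83.0 CPM in Cyp2b-null males. Its log2 changes were -0.59 ± 0.15, -1.02 ± 0.15, -0.63 ± 0.16 and -1.002 ± 0.16, with adjusted p from 4.54e-05 to 0.00754. The hepatocyte markers had median log2 changes of -0.77, -0.58, -0.71 and -0.67 in the same 4 comparisons, and their part in the falls of Elovl5 and Elovl2 was not tested.

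Fads1 and Fads2, which sit next to each other on the chromosome, did not respond alike. Fads2 levels in WT males were 338, 454, 364 and 509 CPM on ND and 674, 737, 681 and 735 CPM on CDAHFD. Cyp2b-null males had 398, 490.0, 511 and 603 CPM on ND and 913, 728, 693 and 769 CPM on CDAHFD. Every CDAHFD-fed male was above every ND-fed male of its genotype. Fads2 rose by a log2 change of 0.76 ± 0.15 in WT males (adjusted p 0.000342) and of 0.63 ± 0.15 in Cyp2b-null males (adjusted p 0.00158, edgeR). In WT females Fads2 was at 326, 532, 359 and 480.2 CPM on ND and 696, 366, 448 and 476 CPM on CDAHFD. Cyp2b-null females had 689, 431, 482 and 548 CPM on ND and 532, 551, 508 and 806 CPM on CDAHFD. The diets overlapped in females, with log2 changes of 0.23 ± 0.21 (adjusted p 0.471) and 0.16 ± 0.21 (adjusted p 0.594). The diet effect on Fads2 was not called as different between sexes (0.56 ± 0.26 in WT, adjusted p 0.458, and 0.50 ± 0.26 in Cyp2b-null mice, adjusted p 0.297).

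Fads1 means were 743 ± 114 CPM on ND and 507 ± 68.7 CPM on CDAHFD in WT females, and 748 ± 85.4 and 579 ± 44.9 CPM in Cyp2b-null females. It fell by 0.55 ± 0.14 on the log2 scale in WT females (adjusted p 0.00553), with 1 CDAHFD-fed library within the ND range, and by 0.37 ± 0.14 in Cyp2b-null females (adjusted p 0.048), with no overlap. The call in Cyp2b-null females was lost in 9 of the 16 fits without 1 female library, over which the adjusted p ran from 0.032 to 0.138. In males the diets overlapped, at 728 ± 168 and 653 ± 84.7 CPM in WT mice and 705 ± 29.2 and 649 ± 80.3 CPM in Cyp2b-null mice, with log2 changes of -0.16 ± 0.15 (adjusted p 0.446) and -0.12 ± 0.15 (adjusted p 0.565). With scaling to library totals these values in males were 0.23 and 0.24. Fads1 thus passed the test downward in females and Fads2 upward in males. Whether diet moved Fads1 differently in the sexes was not resolved, at 0.42 ± 0.20 in WT (adjusted p 0.483) and 0.27 ± 0.20 in Cyp2b-null mice (adjusted p 0.486).

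Elovl1, which extends saturated and monounsaturated chains to those found in sphingolipids, was the one member that rose in all 4 diet comparisons, with every CDAHFD-fed library above every ND-fed library of its sex and genotype. Means on ND and CDAHFD were 31.8 ± 8.24 and 51.3 ± 7.98 CPM in WT females, 32.3 ± 4.73 and 54.8 ± 5.59 CPM in Cyp2b-null females, 30.4 ± 4.46 and 49.0 ± 3.66 CPM in WT males, and 33.8 ± 5.07 and 51.2 ± 4.60 CPM in Cyp2b-null males. The log2 changes of Elovl1 were 0.68 ± 0.17, 0.77 ± 0.17, 0.68 ± 0.13 and 0.60 ± 0.13, with edgeR adjusted p of 0.00586, 0.00196, 0.00033 and 0.000805. Macrophage and stellate cell markers rose in the same comparisons, as given above, and their part in the rise of Elovl1 was not tested.

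The study asked whether loss of Cyp2b alters the response of the liver to CDAHFD. For these 10 genes no genotype effect was called. The count was 0 of 10 on ND in females (0.0756% of genes called), on CDAHFD in females (0.0227%), on ND in males (0.0371%) and on CDAHFD in males (0.0297%), by edgeR, and DESeq2 also gave 0 in each. At an unadjusted p under 0.05 there were 0 members in both comparisons of females, 2 on ND in males and 1 on CDAHFD in males. ND-fed Cyp2b-null males had 141 ± 9.53 CPM of Elovl6 and WT males 195 ± 69.6 CPM (log2 difference -0.46 ± 0.18, adjusted p 0.461), and for Scd3 the difference was -0.87 ± 0.42 (adjusted p 0.605). On CDAHFD, Elovl3 in males differed by -0.89 ± 0.42 (adjusted p 1, or 0.000246 with no filter on low counts). All 3 pairs of groups overlapped. The differences of Scd1 between Cyp2b-null and WT mice were -0.34 ± 0.31 (ND, females), 0.08 ± 0.31 (CDAHFD, females), 0.03 ± 0.55 (ND, males) and -0.72 ± 0.56 (CDAHFD, males). The paper lists Elovl2 among genes that fell further in CDAHFD-fed Cyp2b-null males than in WT males. In these groups the Elovl2 difference was -0.29 ± 0.16 (edgeR unadjusted p 0.0879), with overlap, and was not called. The paper filtered genes by edgeR over all groups and then compared pairs at an unadjusted p under 0.05, so its threshold was not the one used here. The unadjusted edgeR p of Elovl2, 0.0879, was above 0.05 as well, so the adjustment alone does not account for the missing call.

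The diet effect was also not called as different between genotypes for any member, with 0% of all genes called in females and 0.00743% in males. Unadjusted p under 0.05 was reached by 0 members in either sex, and DESeq2 called 0 members. The values nearest to the threshold were Elovl2 in females (-0.43 ± 0.22, unadjusted p 0.0581, adjusted p 0.76), where WT fell by 0.59 and Cyp2b-null mice by 1.02 on the log2 scale, and Elovl6 in males (0.48 ± 0.25, unadjusted p 0.0705, adjusted p 0.83). These 2 were chosen after their values were seen.

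Among the ND-fed libraries, Scd1 varied together with Scd3 and Scd2. Across the 16 ND-fed libraries, deviations of log2(CPM + 1) from the group mean correlated between Scd1 and Scd3 (Pearson r = 0.806, permutation p = 0.00021, adjusted p = 0.00378; Spearman rho = 0.862, permutation p = 0.00027, adjusted p = 0.00486). For Scd2, r was 0.774 (permutation p = 0.0047, adjusted p = 0.0423) and rho 0.809 (permutation p = 0.00387, adjusted p = 0.0348). Without the 2 libraries farthest from the median of Scd1, r was 0.793 and 0.768. The relation was found in each sex, with r of 0.886 in females and 0.782 in males for Scd3 and of 0.852 and 0.725 for Scd2. All members of a library share its scaling, and the shared words of the Scd transcripts were given above; the part of either was not tested. For Elovl6, r was 0.695 (permutation p = 0.0146, adjusted p = 0.0874), and 0.453 without the 2 extremes. In the 16 CDAHFD-fed libraries the largest r was that of Elovl3 (0.69, permutation p = 0.0502, adjusted p = 0.189), while Scd2 had 0.103 and Scd3 0.143. These p-values are two-sided, from 100000 permutations within groups, and were adjusted over 18 relations.

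**Figure D4:**
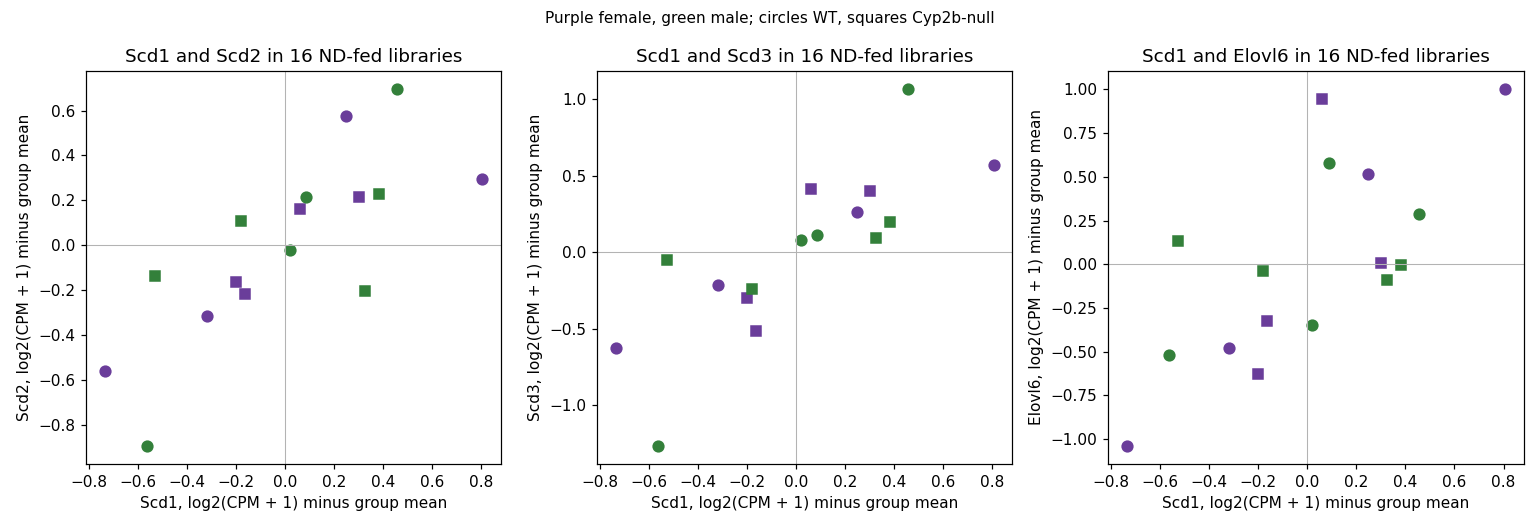
Each point is 1 of 16 ND-fed libraries, with the deviation of Scd1 from its group mean in log2(CPM + 1) on the x axis and that of Scd2, Scd3 or Elovl6 on the y axis. Purple marks females and green males, circles WT and squares Cyp2b-null, and the points rise from left to right for Scd2 (r = 0.774) and Scd3 (r = 0.806) and more loosely for Elovl6 (r = 0.695).

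The genes whose log2 CPM was most like that of Scd1 over the 16 female and 16 male libraries, among 12978 genes, were Serpina1d (mean r 0.974), Cyp2j5 (0.971), Ces2a (0.968), Pygl (0.968) and Idh1 (0.965). Those most like Scd2 were Dnmt1 (0.795), Atp8b4 (0.793), Abca9 (0.793), Plxnb1 (0.779) and Lrrk1 (0.777). For Fads2 they were Fam102a (0.806), Mospd1 (0.767), Wee1 (0.758), Grk6 (0.753) and Emilin2 (0.732). These correlations are descriptions, since they include the diet difference itself and share libraries and scaling.

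Genes listed under fatty acid synthesis, among them the acyltransferase Gpam, fell with Scd1 and Elovl6. Of 9 genes of fatty acid synthesis, all 9 fell in females of both genotypes and all 8 that were tested fell in males of both genotypes, with median log2 changes of -2.54, -2.37, -2.17 and -1.88 in WT females, Cyp2b-null females, WT males and Cyp2b-null males. Fasn, the fatty acid synthase, changed by -2.54 in WT females and -2.06 in WT males, and Acly, which makes cytosolic acetyl-CoA, by -1.91 and -1.49. Acss2, which makes acetyl-CoA from acetate, changed by -3.40 and -2.27, and the acetyl-CoA carboxylase Acacb by -1.98 and -2.56, while Acaca, the other carboxylase, fell as well. Me1, a source of NADPH, changed by -2.64 and -2.98, Thrsp by -3.88 and -3.51, and Gpam, the first acyltransferase of glycerolipid synthesis, by -0.81 and -1.09. The remaining gene, Pnpla3, did not pass the filter in males and passed it in females only through ND-fed libraries, so nothing is read from its call. Against these counts, 10.2%, 13.9%, 15% and 17.1% of all genes tested were called lower in the 4 comparisons in the same order.

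Other desaturases and elongases included genes that were higher on CDAHFD. Of 7 genes, 5 were tested; 3 rose and none fell in females of either genotype, while 4 rose in WT males and 3 in Cyp2b-null males, against 13.9%, 16.9%, 18% and 20.3% of all genes called higher in WT females, Cyp2b-null females, WT males and Cyp2b-null males. Elovl7, an elongase of saturated chains, went from 0.280 to 8.41 CPM in WT females and from 0.293 to 5.08 CPM in WT males. Its ND means lie under the mean level of a floor of 3 counts per library in these groups (0.826 and 0.520 CPM), so no fold is given. Degs2, a dihydroceramide desaturase and hydroxylase, went from 1.99 to 11.1 CPM and from 0.711 to 7.94 CPM. Elovl7 and Degs2 passed the filter through their CDAHFD-fed groups, so nothing is read from their calls. The counts above that include them are not read against the share of all genes. Fads3, beside Fads2 on the chromosome, went from 6.58 to 17.01 CPM (log2 change 1.37) and from 7.65 to 15.2 CPM (0.99), without overlap in either sex. Scd4 and Elovl4 did not pass the filter.

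The partners of the elongation cycle and of cytochrome b5, which hands electrons to the desaturases, had members called in both directions. Of 11 tested genes of 12, 2 rose and 3 fell in WT females, 2 rose and 1 fell in Cyp2b-null females, 2 rose and 4 fell in WT males, and 2 rose and 6 fell in Cyp2b-null males. Over all genes tested, 24.1%, 30.8%, 33% and 37.4% were called in the 4 comparisons in this order, and in Cyp2b-null females the 3 of 11 called were near that background. Cyb5b changed by -0.93 in WT females and -0.84 in WT males, Cyb5r3, a reductase of cytochrome b5, by -0.56 and -0.60, and Tecr, the last enzyme of the elongation cycle, by -0.94 and -0.40. Hacd4 (0.83 and 1.48) and Cyb5r1 (1.30 and 1.12) were those that rose.

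Among 12 regulators, all tested, 1 rose and 4 fell in WT females, and 1 rose and 6 fell in Cyp2b-null females. In WT males 1 rose and 4 fell, and in Cyp2b-null males 5 fell. Over all genes tested, 24.1%, 30.8%, 33% and 37.4% were called in the 4 comparisons in this order. The counts of regulators called in males were near that background. Srebf1, which activates lipogenic genes, changed by -0.82 in WT females and -1.07 in WT males, and its escort Scap by -0.73 and -0.63. Insig1, which retains that complex and is itself a target of it, changed by -2.06 and -1.45, and Mlxipl, the carbohydrate-responsive factor, by -0.60 and -1.28. Pparg rose by 0.96 and 0.69.

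Of 11 acyl-CoA synthetases and acyltransferases, 9 were tested in females and 10 in males; 2 rose and 3 fell in WT females, 1 rose and 3 fell in Cyp2b-null females, 4 rose and 3 fell in WT males, and 4 rose and 2 fell in Cyp2b-null males, again beside 24.1% to 37.4% of all genes called. Those that fell in WT mice of both sexes were the synthetases Acsl1 (-1.04 in females and -1.33 in males), Acsl3 (-1.35 and -1.01) and Acsl5 (-1.21 and -1.06). The lysophosphatidylcholine acyltransferases Lpcat1 (0.87 and 1.004) and Lpcat2 (1.58 and 1.81) rose.

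**Figure D5:**
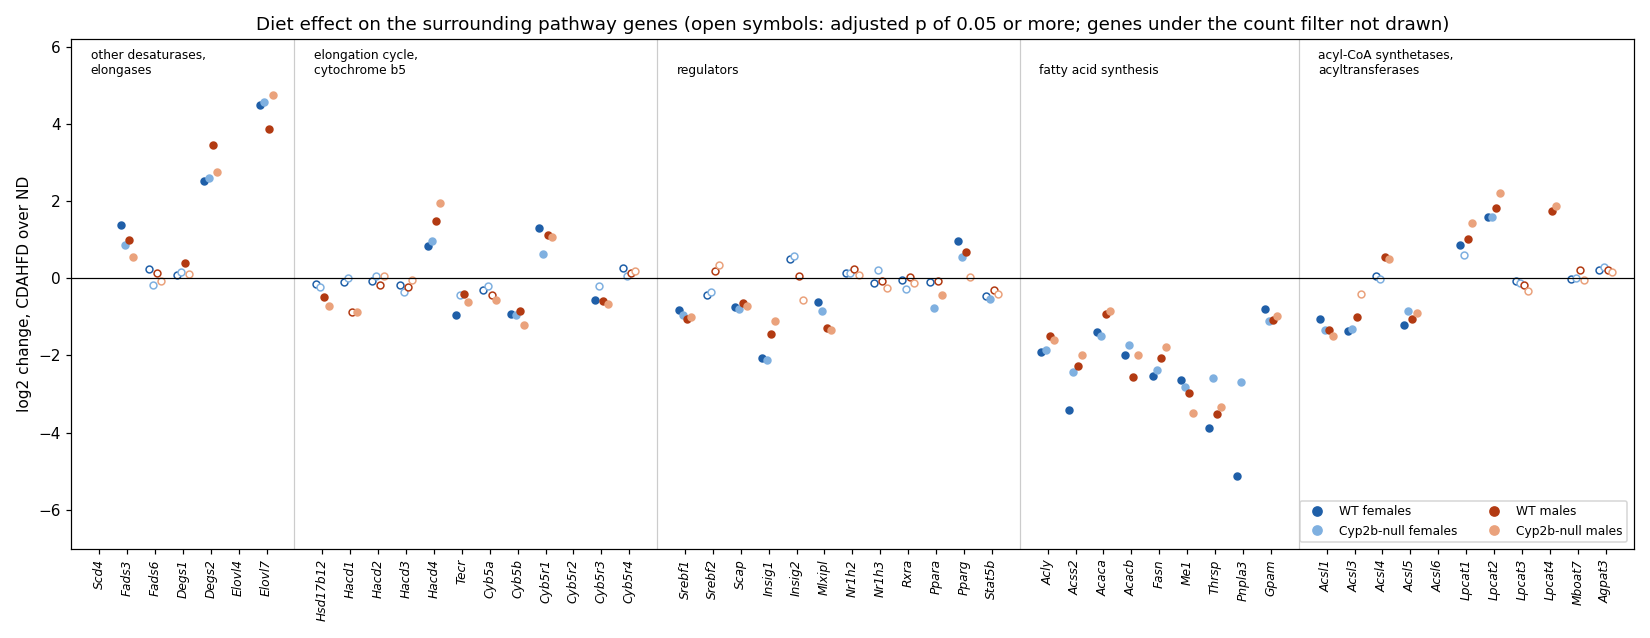
Points are log2 changes of CDAHFD over ND for the genes of 5 surrounding lists in WT females, Cyp2b-null females, WT males and Cyp2b-null males, with open symbols where the adjusted p was 0.05 or more. All tested genes of the fatty acid synthesis list lie below 0, and Fads3 lies above it. Elovl7 and Degs2 also lie above 0, but they passed the filter through their CDAHFD-fed groups. The fitted points of Elovl7 depend on the prior count.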

How the data were processed

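From liver RNA (TRIzol), the authors made NEB Next Ultra libraries, trimmed the reads with Trimmomatic, aligned them to GRCm38.p6 with GSNAP and counted them per gene with featureCounts. Tool versions, strand and multi-mapping settings are not given in the sources used here. The deposited values are raw counts of reads per gene, not normalized, in 1 table for each sex. Members and lists were chosen with earlier results of these data known. Named genes were the 10 members, the 5 genes most like Scd1, Scd2 and Fads2, genes of the pathway lists called in WT mice of both sexes, and the deleted Cyp2b genes. Counts were scaled with TMM factors, filtered with filterByExpr (at least 10 counts, total 15) and tested with edgeR 4.0.16 (R 4.3.3, quasi-likelihood) on the 16 libraries of a sex, or on all 32 for sex differences, where sex and table cannot be told apart. Adjustment was by Benjamini-Hochberg across every gene that passed the filter. The script was tested on simulated data. CPM levels per kb used exon lengths from GENCODE. Alternatives were DESeq2 1.42.0, other scaling, filters, sample sets, the study's 2-step rule, the replicate block and leaving out each library. A group with at most 3 counts in every library was set to a floor of 3 counts for lower bounds. That floor does not measure counting error. Of the table's entries, 4 were duplicated and 27 had date-like names.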

Additional observations from a re-analysis of the deposited data

Results flagged for a closer look

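Among 80 groups of 4 libraries, 1 for each member and group, the gap between the highest or lowest library and its nearest neighbour exceeded Dixon's critical share of the group's range in 3, where chance gives about 4. Scd3 in CDAHFD-fed WT males had 0.187 CPM in replicate 1 and 0 in the other 3 libraries, which is a single read. Fads2 in CDAHFD-fed Cyp2b-null females had 806 CPM in replicate 4 and 508 to 551 CPM in the others. Elovl1 in CDAHFD-fed WT males had 54.5 CPM in replicate 1 and 46.7 to 47.5 CPM in the others. The diet effect on Elovl3 was called as different between the sexes in Cyp2b-null mice, by -5.02 on the log2 scale (males minus females, adjusted p 0.000364 by edgeR), with a fall in males and overlapping diets in females. ND-fed Cyp2b-null females held only 2 to 31 Elovl3 reads per library, too few for a fall as deep as that of males to be measured.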

How the results depend on the processing

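The number of members called for diet was 6 to 8 in WT females, 5 to 7 in Cyp2b-null females, 8 to 9 in WT males and 9 in Cyp2b-null males over the alternative settings. Without a filter on low counts, 2 members were called for genotype in CDAHFD-fed males, 2 for a sex difference in WT mice and 3 in Cyp2b-null mice. The WT sex difference was called for 1 member with DESeq2 and with library size only, and for 0 to 1 when single libraries were left out; the Cyp2b-null one was called for 2 with only the groups compared. The value of Fads1 with library size only was 0.23 in WT males and 0.24 in Cyp2b-null males. In Cyp2b-null females, leaving out single libraries gave -0.018 (without CDAHFD replicate 4) to 0.297 for Fads2 and -0.799 to 0.053 (without ND replicate 4) for Elovl3, all uncalled. The study's 2-step rule lost Elovl3 in WT females and Scd2 in WT males. The causes were not tested. Same-numbered libraries did not deviate together (median correlation -0.0054 in females and 0.020 in males), and the fit with the replicate number as a block called 7, 6, 9 and 9 members for diet in WT females, Cyp2b-null females, WT males and Cyp2b-null males, losing Elovl3 in WT females (-1.64, adjusted p 0.0506) and Fads1 in Cyp2b-null females (-0.37, adjusted p 0.0591). Depth limits Scd3 on CDAHFD, which was at the floor of 3 counts, and Elovl3 in females.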
